A study of Mus musculus with 56 samples.

Results

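Cells grown in culture out of N-myc-driven mouse brain tumours were compared with such tumours taken from the brain. The comparison holds 3 tumour-derived cultures and 9 orthotopic tumours, 12 of the 56 arrays of the series, and its members were taken by their titles. The cultures came from a tumour of embryonic day 16 cerebellar origin (E16C), a tumour of postnatal day 0 cerebellar origin (P0C) and a tumour of postnatal day 0 forebrain origin (P0F), with 1 culture per origin. The tumours were 3 of E16C, 3 of P0C and 3 of P0F origin, where origin is the tissue that gave the transplanted neural stem cells (NSCs). All 12 samples were on an FVB/N background, and in all of them the tumour cells descend from NSCs carrying N-myc(T58A), an N-myc altered so that the protein is broken down more slowly. In the culture titles the tumour of origin is MB for the cerebellar cultures and glioma for the forebrain culture, each followed by a 1 that may or may not stand for the tumour labelled replicate 1. The labels give no culture medium, passage number or transplantation site, and leave unstated whether tumours sharing an origin came out of separate NSC preparations, so that p-values measure the spread between these samples, which may be partly technical. Each level is a log2 value on an Affymetrix whole-transcript array, a difference is culture minus tumour on that scale, and precision is limited by how few arrays there are.

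A piece of brain tumour holds more than tumour cells. Microglia and macrophages, which take up debris and carry the complement proteins of C1q, blood vessels with their endothelium and pericytes, and reactive astrocytes filled with the intermediate filament Gfap are known residents of such tissue, whereas a dissociated culture keeps what grows in its medium. Cells of the brain make their own cholesterol, because plasma lipoproteins do not cross the blood-brain barrier. The pathway runs from acetyl-CoA through mevalonate, isoprenoids and squalene to lanosterol and cholesterol, its genes are switched on by the factor SREBP2 (Srebf2) when membrane sterol is low, and the liver X receptors (LXR) switch on export genes such as Abca1 when sterol is plentiful.

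The P0C and P0F cultures were close to each other before any gene was tested. Across 13131 genes they correlated at r = 0.979, above the 0.896 to 0.969 between tumours of 1 origin. The SD of the gene differences between these 2 cultures was 0.381. Cultured cells of different origin could come near this. The E16C NSCs carrying N-myc correlated at 0.964 with the P0C NSCs carrying N-myc. With the P0C and P0F cultures they correlated at 0.965 and 0.966. E16C and P0C NSCs carrying GFP were less alike, at 0.902 and 0.912. A sorted and an unsorted sample of the P0C NSCs carrying GFP, by comparison, correlated at r = 0.990 with an SD of 0.259. With tumours of its own origin the P0C culture correlated at 0.871 to 0.898, and with P0F tumours at 0.914 to 0.927. The other 2 cultures also correlated least with P0C tumours, at 0.827 to 0.856 for the E16C and 0.863 to 0.897 for the P0F culture, so that a low value with these tumours was not particular to the P0C culture. Pax3, a factor of the hindbrain and dorsal neural tube, read 9.03 in the E16C, 6.31 in the P0C and 5.88 in the P0F culture, against 7.46 to 10.29 in E16C, 7.21 to 8.10 in P0C and 5.68 to 5.80 in P0F tumours. For Pax3 the P0C culture lay nearer to the forebrain tumours than to those of its label. Hoxa2, a hindbrain gene, did not follow the labels, with 7.48, 8.31 and 9.14 in the E16C, P0C and P0F cultures, against 5.86 to 10.01 in E16C, 5.96 to 7.91 in P0C and 8.05 to 9.70 in P0F tumours. Emx2 read 6.30, 7.94 and 7.38 in the E16C, P0C and P0F cultures. In tumours it read 5.85 and 7.60 in E16C with 1 blank, 5.95 to 6.24 in P0C and 7.10 to 7.79 in P0F. For Emx2 too the P0C culture lay nearer to the P0F tumours, but 1 E16C tumour was within their range. NSCs had Emx2 at 6.51 to 7.95, with forebrain NSCs at 7.43. Dlx1, Irx1, Irx2 and Zic1 did not separate the tumours by region without overlap either, so that these genes do not settle the origin of the culture. In the 6 NSC arrays Pax3 read 8.33 to 9.74, with forebrain NSCs the highest, so that the gene did not tell the regions apart there. The E16C culture correlated at 0.888 to 0.903 with the other 2 cultures. Results below are given with all 3 cultures and, where it matters, without the culture labelled P0C.

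Of 12063 genes tested, 377 (3.13%) differed between cultures and tumours at a limma adjusted p under 0.05. There were 172 higher in cultures (1.43%) and 205 lower (1.70%), and the median difference of all genes was 0.05. Among called genes 45.6% were higher, or 34.8% when the arrays were quantile normalized. The lower genes differed more, since 174 of them and 79 of the higher ones differed at least 2-fold. Without the P0C culture 56 genes passed the test, 17 higher and 39 lower, and 54 of them were among the 377. Without the P0F culture 96 passed, and without the E16C culture 316. There were 42 genes, 11 higher and 31 lower, that passed with all 12 arrays and in each of the 12 fits that left out 1 array. Of these, 10 belonged to the microglia list and 4 to the sterol synthesis list described below. Array medians lay between 7.91 and 8.06, and a level under 6.30 (the 25th percentile of all values) is near the background of the array, so that a difference against it may understate that of the transcript.

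Microglia and macrophage genes were the group most often lower in cultures. Of 22 genes of the list tested, 18 were lower and none higher, beside 1.70% of all genes that were lower, and 20 had all 3 cultures below all 9 tumours, beside 3.31% of all genes. The median difference of the list was -1.87. The mean level of the list was 6.43, 6.30 and 6.28 in the E16C, P0C and P0F cultures, against 7.68, 8.58 and 9.16 (lowest, median and highest of 9) in tumours. The 6 arrays of NSCs, which never passed through a tumour, lay at 6.05 to 6.86. In bulk samples fewer cells of a type and less RNA per cell cannot be told apart.

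C1qb, a chain of complement C1q, read 6.70, 6.12 and 6.49 in the E16C, P0C and P0F cultures, against 9.98, 10.58 and 11.19 (lowest, median and highest) in the 9 tumours. The groups were separated by more than 3 log2 units, and the gene was 17.4-fold lower in cultures (difference -4.12, SE 0.24, limma adjusted p = 3.556e-05). Its partner chains were lower too, C1qc by a difference of -3.26 (SE 0.23, limma adjusted p = 0.00011) and C1qa by -2.09 (SE 0.29, limma adjusted p = 0.00485). Ctss, the lysosomal protease cathepsin S, read 5.32, 5.21 and 4.95 in cultures, against 8.02, 9.30 and 10.64 in tumours. Csf1r, the receptor that keeps microglia alive, lay at 6.34, 6.45 and 6.39 in cultures, against 7.73, 8.70 and 9.35 in tumours (difference -2.17, SE 0.25, limma adjusted p = 0.00163). The culture levels of C1qb, Ctss and Csf1r are close to background, and C1qa, C1qb, C1qc, Ctss and Csf1r all kept their calls in each fit without 1 array.

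Further members spanned the machinery of these cells. The immune receptor adaptors Tyrobp and Fcer1g differed by -2.75 and -2.84, the lysosomal proteins Laptm5 and Cd68 by -3.05 and -2.28, the tetraspanin Cd53 by -3.13 and Ly86, which pairs with a Toll-like receptor homologue, by -3.16. Cd68 was not particular to tumours, since the NSC arrays had it at 7.12 to 11.36. The P0C NSCs carrying GFP, at 10.74 and 11.36, lay above every orthotopic tumour (9.29 to 10.36). Spi1, the PU.1 factor that sets up the lineage, differed by -1.47 (limma adjusted p = 0.00658), and P2ry12, the ADP receptor of resting microglia, by -1.10 (limma adjusted p = 0.0467). Ptprc, Irf8, Cd14 and Tmem119 did not pass the test. Tmem119 read 7.88, 6.42 and 6.34 in cultures, against 6.35 to 7.83 in tumours, so that the E16C culture was above every tumour for this gene. In 6 of the 22 genes all 3 cultures were under 6.30, and in none of them were all tumours. The count of lower members was 11 without the P0C culture, 11 without the P0F culture and 16 without the E16C culture, and the median difference was -1.96, -1.57 and -2.02 in these fits. The count was 10 with the P0C and P0F cultures averaged to 1 array (median -1.86) and 3 with cerebellar origins alone (median -1.57). Ly86 was among those lost without the P0C culture (limma adjusted p = 0.0534).

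Genes of phagocytes outside the list, chosen after their values were seen, were lower too. C3ar1, the receptor for complement fragment C3a, read 4.94, 5.47 and 4.92 in cultures, against 7.69, 9.05 and 9.72 in tumours (difference -3.79, SE 0.35, limma adjusted p = 0.000629). Cybb, the catalytic subunit of the phagocyte oxidase, differed by -3.33, the granule proteoglycan Srgn by -3.47, Ms4a6c by -3.29, and the leukocyte cytoskeletal proteins Plek and Lcp1 by -2.75 and -2.74. All 6 genes were among the 42 called in every fit that left out 1 array, which adds no support to the list, given how they were chosen. Of 3 T and B cell genes tested none passed, and the lymphocyte list averaged 5.82 to 5.93 in cultures, against 5.77 to 6.29 in tumours.

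Blood vessel genes were lower as well, with fewer calls. Of 15 endothelial genes 7 were lower and none higher, beside 1.70% of all genes that were lower, 12 had all cultures below all tumours, beside 3.31% of all genes, and the median difference was -1.40. The list averaged 6.16, 6.35 and 6.26 in cultures, against 7.30, 7.65 and 8.36 (lowest, median and highest) in tumours. Slco1c1, a thyroid hormone and organic anion transporter of the blood-brain barrier, read 5.42, 5.17 and 5.39 in cultures, against 6.99, 7.72 and 8.52 in tumours (difference -2.35, SE 0.27, limma adjusted p = 0.00173). Kdr, the main receptor for VEGF, differed by -2.45 (limma adjusted p = 0.0184), Cdh5, the cadherin of endothelial junctions, by -2.43 (limma adjusted p = 0.00804) and Pecam1, a further adhesion protein of these junctions, by -1.41 (limma adjusted p = 0.0372). Emcn, an endothelial sialomucin, was called at -2.44 although its groups overlapped, since the P0C culture at 7.25 lay above 1 P0F tumour at 6.83. Without the P0C culture 1 of the 7 calls remained, that of Slco1c1, and the list's median was -1.09. Without the P0F culture 2 endothelial genes passed, and without the E16C culture 3. With the P0C and P0F cultures averaged to 1 array 2 passed (median -1.38), and with cerebellar origins alone 0 (median -1.45).

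Of 9 genes of pericytes and smooth muscle 3 were lower, beside 1.70% of all genes, and none higher. Acta2, the actin of smooth muscle, read 6.68, 6.15 and 7.18 in cultures, against 8.17, 9.49 and 11.93 in tumours (difference -3.20, SE 0.51, limma adjusted p = 0.0108). Rgs5, a G-protein regulator that marks pericytes, differed by -2.52 and the matrix protein Vtn by -2.26. Acta2 kept its call in every fit that left out 1 array, whereas Rgs5 and Vtn lost theirs without the P0C culture (limma adjusted p = 0.174 and 0.161) and without the P0F culture. Fibroblast and meningeal genes gave no call among 11 tested.

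Of 13 astrocyte genes 3 were lower, beside 1.70% of all genes, and none higher, with a median difference of -1.39. Gfap read 5.78, 6.32 and 6.10 in the E16C, P0C and P0F cultures, against 9.21, 10.48 and 11.43 (lowest, median and highest) in tumours. Every tumour exceeded every culture by at least 2 log2 units, and the culture levels were near the background of 6.30, so that the fitted difference depends on that floor (difference -4.24, SE 0.42, limma adjusted p = 0.000835). Apoe, the main lipoprotein of the brain, which astrocytes and activated microglia both make, read 8.43, 8.63 and 8.78 in cultures, against 11.71, 12.55 and 13.12 in tumours (difference -3.88, SE 0.26, limma adjusted p = 9.125e-05). Aqp4, the water channel of astrocyte endfeet, differed by -2.06 (limma adjusted p = 0.0276), but not past the threshold without the P0C culture (limma adjusted p = 0.105) or the P0F culture (limma adjusted p = 0.153). The groups overlapped for each of the other 10 members tested. Gja1, the gap junction protein connexin 43, read 10.68, 8.93 and 9.88 in cultures, against 6.90 to 11.22 in tumours, and the glycolytic enzyme Aldoc read 7.82 in the E16C culture but 12.39 and 11.70 in the P0C and P0F cultures, against 10.46 to 12.50 in tumours.

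The oligodendrocyte list averaged 6.33, 6.09 and 6.16 in cultures, against 6.11 to 6.83 in E16C, 7.78 to 10.31 in P0C and 6.64 to 6.96 in P0F tumours, and its median difference was -3.42 for P0C and -0.28 for E16C, which were not tested against each other as a list. Of 10 genes tested 1 was lower, beside 1.70% of all genes, Omg, a myelin glycoprotein, for which the E16C and P0F cultures were blank and the P0C culture read 4.79. Its difference of -5.92 rests on the P0C culture alone. Mbp, a main protein of myelin, differed by -2.50 without passing (limma adjusted p = 0.0841). Neuronal genes gave no call among 14, with a list mean of 6.55 to 6.72 in cultures, against 6.61 to 8.38 in tumours.

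**Figure D1:**
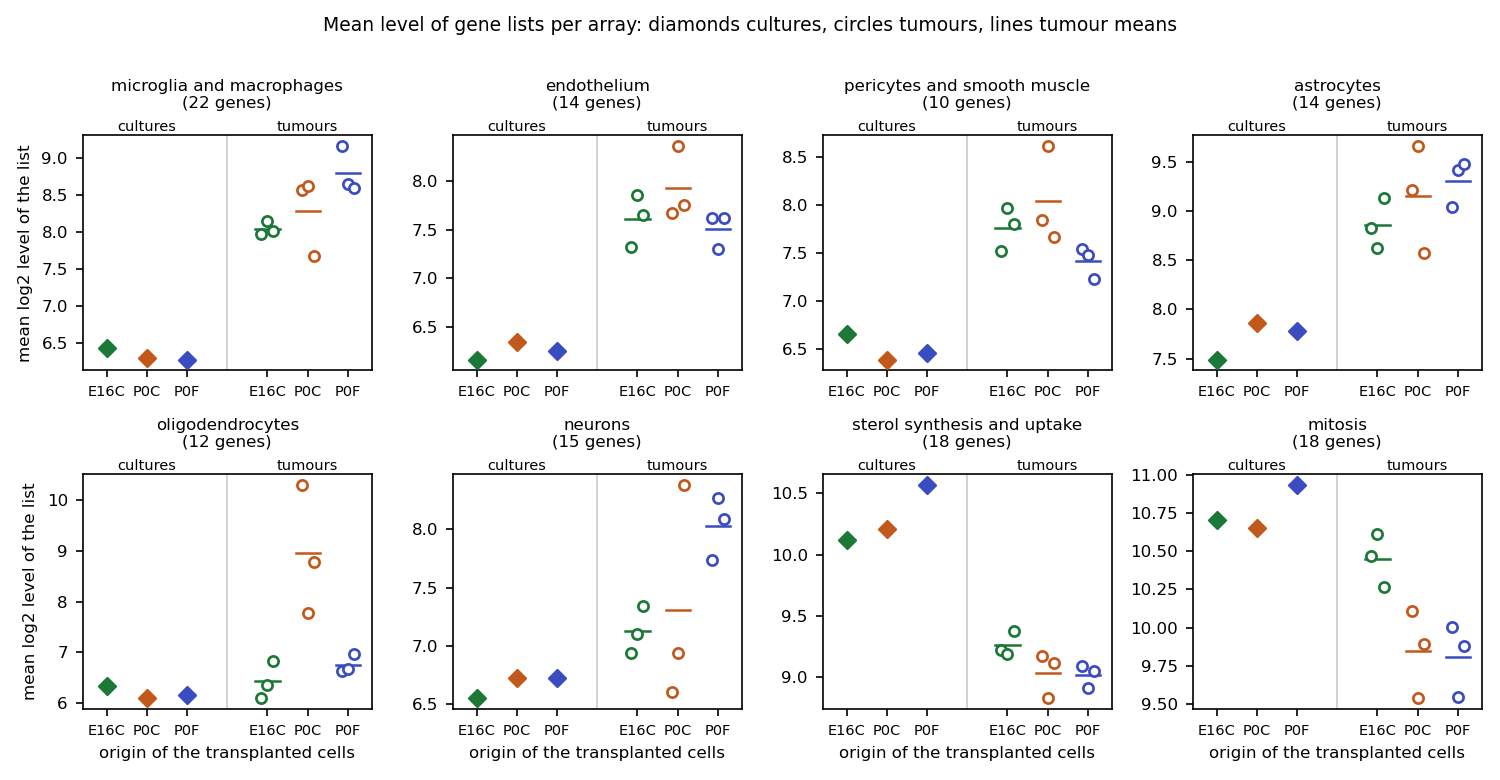
Mean log2 level of 8 gene lists in each array, with the 3 cultures as filled diamonds on the left and the 9 tumours as open circles on the right, coloured by origin, and lines at the tumour mean of each origin. Cultures lie below all tumours for microglia (6.28 to 6.43, against 7.68 to 9.16), endothelium, pericytes and astrocytes, and above them for sterol synthesis (10.12 to 10.57, against 8.83 to 9.38) and mitosis. The y axes start above 0 and differ between panels.

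Genes of sterol synthesis were higher in cultures. Of 18 genes tested 12 were higher in cultures and none lower, beside 1.43% of all genes that were higher. In 11 of them all 3 cultures exceeded all 9 tumours, beside 3.89% of all genes, all 18 differences were positive, and the median difference was 1.17. The list averaged 10.12, 10.21 and 10.57 in the E16C, P0C and P0F cultures, against 8.83, 9.12 and 9.38 (lowest, median and highest) in tumours.

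The sterol genes share a promoter feature that the comparison did not use. In RefSeq's mouse promoter windows (build GRCm38.p6, 250 bases before to 50 after a gene's start), 14 of the 18 measured sterol genes had an entry, and all 14 held a CCAAT box on either strand in at least 1 window, beside 41.1% of the 27025 genes of the table. Of the 14, 9 were higher in cultures, while Ebp, Hsd17b7, Insig1, Pmvk and Sc5d did not pass. The box thus did not set the higher genes of the list apart. CCAAT is bound by NF-Y, a partner of SREBP2. Of 16 genes of the microglia list with an entry, 8 held it. The motif TCACNCCAC, one form of the sterol regulatory element bound by SREBP2, was in 1 of the 14, Hmgcs1, beside 1.44% of all genes. A match describes these letters in the window and not a bound site. The windows of Hmgcs1, which holds both motifs, and of the 3 sterol genes with the largest differences are given here, 5′ to 3′ on the strand of the gene, with matches to either motif in capitals (ATTGG is CCAAT on the other strand, and TCACCCCAC in Hmgcs1 is the sterol regulatory element). They lie at chr13:119690101-119690400 on the plus strand for Hmgcs1, chr13:8885356-8885655 on the plus strand for Idi1, chr8:64733529-64733828 on the minus strand for Msmo1 and chrX:72918271-72918570 on the plus strand for Nsdhl.
Hmgcs1: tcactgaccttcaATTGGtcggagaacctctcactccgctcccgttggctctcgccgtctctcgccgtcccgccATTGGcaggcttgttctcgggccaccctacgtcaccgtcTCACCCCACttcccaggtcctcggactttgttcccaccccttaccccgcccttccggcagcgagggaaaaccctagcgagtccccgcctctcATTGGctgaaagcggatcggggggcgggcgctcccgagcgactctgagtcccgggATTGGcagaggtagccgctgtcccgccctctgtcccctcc
Idi1: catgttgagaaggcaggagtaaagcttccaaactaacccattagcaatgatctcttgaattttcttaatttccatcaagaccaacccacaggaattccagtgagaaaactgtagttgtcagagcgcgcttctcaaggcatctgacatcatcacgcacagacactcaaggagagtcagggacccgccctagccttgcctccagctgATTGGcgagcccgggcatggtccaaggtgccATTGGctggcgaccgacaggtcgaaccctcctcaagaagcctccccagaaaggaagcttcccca
Msmo1: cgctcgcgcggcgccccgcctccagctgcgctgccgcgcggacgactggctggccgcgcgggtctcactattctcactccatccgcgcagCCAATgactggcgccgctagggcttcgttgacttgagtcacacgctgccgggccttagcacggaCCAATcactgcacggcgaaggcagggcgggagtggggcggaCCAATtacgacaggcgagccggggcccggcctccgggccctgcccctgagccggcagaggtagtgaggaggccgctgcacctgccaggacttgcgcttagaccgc
Nsdhl: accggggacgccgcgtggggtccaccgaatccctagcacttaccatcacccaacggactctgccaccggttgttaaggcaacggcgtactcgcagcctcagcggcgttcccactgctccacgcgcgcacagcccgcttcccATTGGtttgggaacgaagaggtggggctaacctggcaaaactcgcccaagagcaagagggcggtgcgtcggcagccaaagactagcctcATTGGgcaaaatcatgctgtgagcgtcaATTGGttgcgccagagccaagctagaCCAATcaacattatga

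Along the pathway, the increase covered the mevalonate, isoprenoid and sterol branches. Hmgcs1, the synthase that makes HMG-CoA and whose promoter holds both motifs, read 10.58, 11.29 and 11.42 in the E16C, P0C and P0F cultures, against 9.26, 9.83 and 10.32 (lowest, median and highest) in tumours. The difference was 1.29 (SE 0.23, limma adjusted p = 0.0157). Mvk and Mvd, which phosphorylate and decarboxylate mevalonate, differed by 0.84 and 0.92. Pmvk, the kinase between them, read 7.67, 7.82 and 8.84 in cultures, against 7.27 to 8.70 in tumours, and did not pass (limma adjusted p = 0.487).

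Idi1, the isomerase that readies isoprenoid units for joining, read 10.90, 10.47 and 11.17 in cultures, against 7.62, 8.42 and 9.77 in tumours. It was 4.78-fold higher in cultures (difference 2.26, SE 0.33, limma adjusted p = 0.00709). Fdps, which makes farnesyl diphosphate, read 11.26, 12.24 and 12.67 in cultures, against 8.93, 9.98 and 11.09 in tumours (difference 1.94, SE 0.26, limma adjusted p = 0.00474). Both groups stayed apart for either gene, and both calls were lost by a small margin without the P0C culture (limma adjusted p = 0.0593 for Idi1 and 0.0511 for Fdps). Fdft1 and Sqle, which make squalene and oxidise it, differed by 1.21 and 1.35.

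The 4 enzymes after lanosterol that passed had the smallest p-values of the list. Lss, which closes squalene epoxide into lanosterol, differed by 1.06, and Cyp51, which demethylates lanosterol, by 1.21 (SE 0.15, limma adjusted p = 0.00338). Msmo1, the next oxidase, read 11.43, 11.25 and 11.49 in the E16C, P0C and P0F cultures, against 8.72, 9.14 and 9.43 in tumours. The 3 cultures lay within 0.3 log2 units of each other, and the gene was 4.84-fold higher in cultures (difference 2.27, SE 0.17, limma adjusted p = 0.00011). Nsdhl, which works in the same complex, read 10.70, 11.40 and 11.49 in cultures, against 8.82, 9.18 and 9.86 in tumours (difference 2.01, SE 0.25, limma adjusted p = 0.00335). Dhcr7, the last enzyme of the pathway, differed by 1.43 (SE 0.16, limma adjusted p = 0.00146). Cyp51, Msmo1, Nsdhl and Dhcr7 passed in each of the 12 fits that left out 1 array, and Msmo1 had an adjusted p of 0.00313 without the P0C culture.

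The other 6 genes of the list did not pass. Ebp, the isomerase between Nsdhl and Dhcr7, read 8.25, 8.51 and 8.75 in cultures, against 7.84 to 9.26 in tumours (limma adjusted p = 0.765), and Hsd17b7 overlapped as well. Sc5d differed by 0.81 without passing (limma adjusted p = 0.0589). Insig1, which holds SREBP in the endoplasmic reticulum and is itself a target, differed by 0.79 (limma adjusted p = 0.0994), and Stard4, a sterol carrier, by 1.13 (limma adjusted p = 0.135). The factor itself, Srebf2, read 11.01, 10.84 and 10.94 in cultures, against 10.22, 10.36 and 10.72 in tumours, without overlap but short of the threshold (difference 0.50, SE 0.13, limma adjusted p = 0.0747). Without the P0C culture 4 sterol genes passed, without the P0F culture 5 and without the E16C culture 10, with median differences of 1.16, 0.94 and 1.37. With the P0C and P0F cultures averaged to 1 array 4 passed (median 1.14), and with cerebellar origins alone 1 (median 0.94). By origin the median difference of the list was 0.82 for E16C, 1.13 for P0C and 1.54 for P0F.

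Of 6 genes of sterol export 2 were lower in cultures, beside 1.70% of all genes, and none higher. Abca1, which loads cholesterol onto lipoproteins, read 7.51, 6.63 and 6.94 in the E16C, P0C and P0F cultures, against 9.06, 10.31 and 11.08 (lowest, median and highest) in tumours. It was 9.39-fold lower in cultures (difference -3.23, SE 0.44, limma adjusted p = 0.00474), and without the P0C culture it just missed the threshold (difference -3.10, limma adjusted p = 0.0511). Abcg1, its partner in export, read 7.04, 6.83 and 6.87 in cultures, against 8.16, 8.57 and 10.23 in tumours (difference -1.88, SE 0.37, limma adjusted p = 0.0237), a call that was lost without any 1 of the 3 cultures. The other 4 genes of the LXR list did not pass. Mylip, a ubiquitin ligase, differed by -1.09 and Lpcat3, a phospholipid remodelling enzyme, by 0.27. Macrophages express Abca1, Abcg1 and Apoe strongly, and the microglia list was lower in the same arrays, with a mean of 6.28 to 6.43 in cultures, against 7.68 to 9.16 in tumours. Its part in the export genes was not tested.

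Of 11 genes of fatty acid synthesis 1 was higher in cultures by the test, beside 1.43% of all genes, and 10 had positive differences (median 0.50). The list averaged 11.10, 11.23 and 11.38 in the E16C, P0C and P0F cultures, against 10.26, 10.61 and 11.04 (lowest, median and highest) in tumours, without overlap. Scd1, the desaturase that makes oleate, read 11.34, 11.61 and 12.03 in cultures, against 8.04, 9.49 and 11.27 in tumours, with 1 P0C tumour at 11.27 close to the cultures. The difference was 2.44 (SE 0.49, limma adjusted p = 0.0244) and did not pass without any 1 of the cultures (limma adjusted p of 0.0808 to 0.111), nor without P0F tumour 2 (0.0527) or 3 (0.0502). Fads1, a fatty acid desaturase, differed by 0.72 with all cultures above all tumours, and did not pass (limma adjusted p = 0.103). Fasn, the fatty acid synthase, and Acly, which supplies acetyl-CoA, differed by 0.17 and 0.35, and Srebf1 by -0.08, none of them past the threshold.

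**Figure D2:**
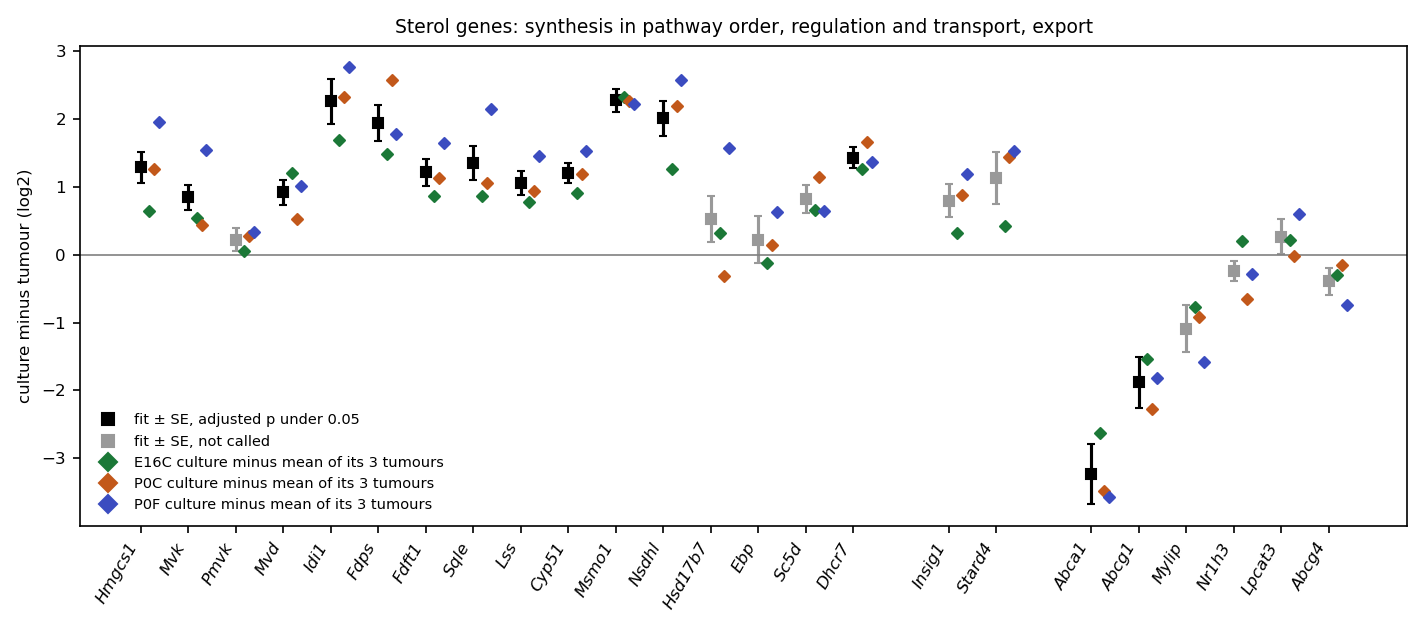
Culture minus tumour difference (log2) of the sterol genes in pathway order, followed by regulation and transport and by the LXR export genes. Squares and bars are the fitted difference with its SE, black where the adjusted p was under 0.05 and grey where it was not, and small diamonds give each culture minus the mean of its own 3 tumours. Of the 18 synthesis and uptake genes all squares lie above 0, from 0.22 to 2.27, while Abca1 and Abcg1 lie at -3.23 and -1.88.

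Beside sterol genes and Scd1, 5 further genes were among the 10 largest increases of called genes whose groups did not overlap. Lgals1, galectin-1, read 13.79, 13.31 and 13.06 in cultures, against 9.10, 11.32 and 12.02 in tumours (difference 2.43, SE 0.39, limma adjusted p = 0.0108). The 6 NSC arrays had it at 13.46 to 13.84. Frk, a Src-family kinase, differed by 2.40, Sting1, the adaptor of cytosolic DNA sensing, by 2.20 and Nqo1, a quinone reductase under the oxidative stress factor NRF2, by 2.11. These 4 calls were lost without the P0C culture (limma adjusted p of 0.0665 for Lgals1, 0.14 for Frk, 0.109 for Sting1 and 0.0689 for Nqo1). Lgals1 and Frk also missed the threshold without the P0F culture (0.0732 and 0.0847), and Sting1 without the E16C culture (0.0538). Grasp, a scaffold of glutamate receptors, read 9.96, 10.60 and 10.29 in cultures, against 7.97, 8.46 and 9.01 in tumours, and passed in every fit that left out 1 array (difference 1.83, SE 0.21, limma adjusted p = 0.00197). The mitochondrial protein Chchd5 (difference 1.04) and the endosomal GTPase Rab9 (difference 1.21) did so too, but were picked after their values were seen, so that their passing adds no support.

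Among called genes without blanks whose groups did not overlap, the 10 largest decreases included, beside Gfap, C1qb, Ctss, Apoe and C3ar1, the following 5 genes. Apod, a lipocalin secreted by glia and perivascular cells, read 6.76, 6.46 and 7.11 in cultures, against 9.48, 11.65 and 12.24 in tumours, a 22.1-fold lower level (difference -4.47, SE 0.46, limma adjusted p = 0.000835). Ndrg2, an astrocyte protein, read 8.14, 7.56 and 7.40 in cultures, against 10.60, 11.45 and 12.41 in tumours (difference -3.85, SE 0.33, limma adjusted p = 0.000431). Both passed in every fit that left out 1 array. The astrocyte receptor Gpr37l1 and the axonal adhesion protein Cntn1 differed by -3.80 and -3.66, and lost their calls without any 1 of the cultures, Gpr37l1 also without P0F tumour 2 (limma adjusted p = 0.0504) and Cntn1 in 9 of the 12 fits that left out 1 array. Prm1, the protamine that packs sperm DNA, read 7.37, 7.10 and 7.27 in cultures, against 9.21, 10.79 and 13.06 in tumours (difference -3.80, SE 0.72, limma adjusted p = 0.0199), and lost its call without any 1 of the cultures. GTML tumours had Prm1 at 6.56 to 7.14, near the cultures.

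**Figure D3:**
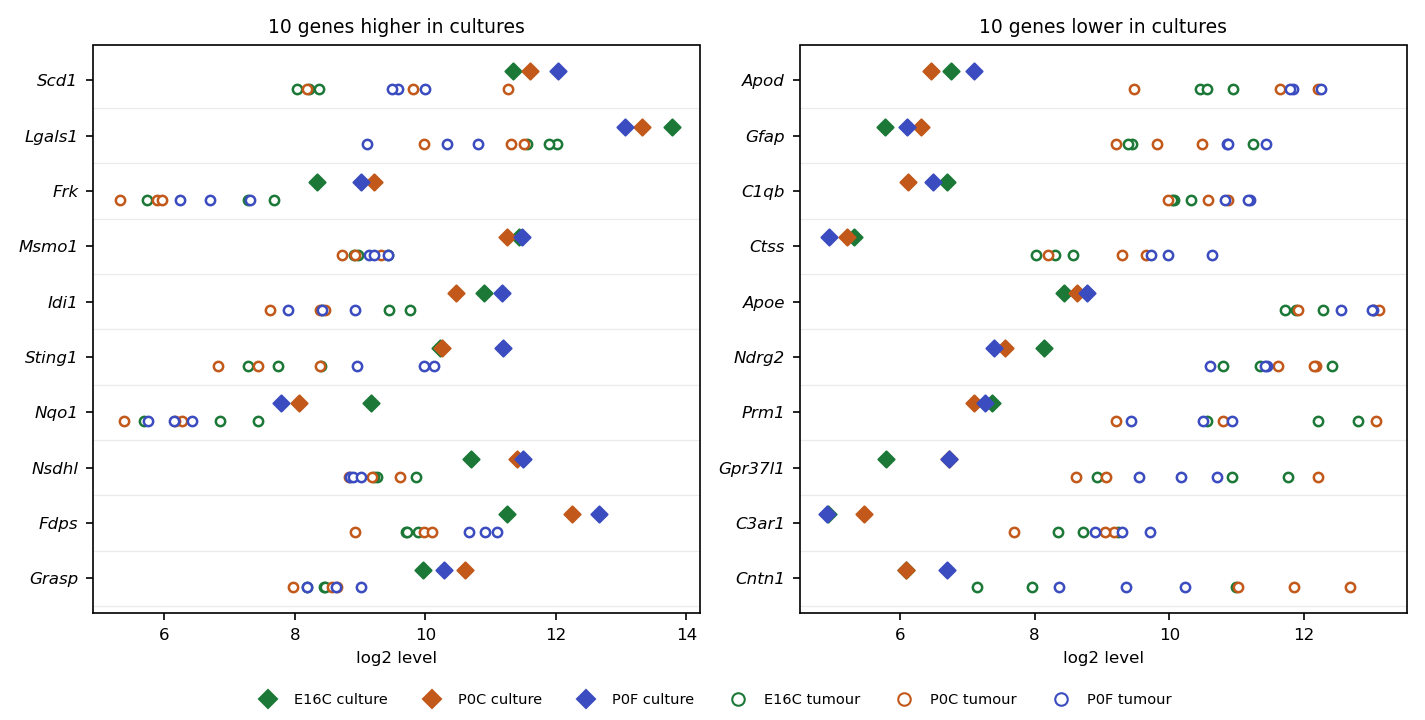
Log2 levels of the 10 genes with the largest increase (left) and the 10 with the largest decrease (right) among called genes whose groups did not overlap. Filled diamonds are the 3 cultures and open circles the 9 tumours, coloured by origin. For C1qb the cultures lie between 6.12 and 6.70 and the tumours between 9.98 and 11.19, while for Scd1 the highest tumour, at 11.27, comes close to the lowest culture, at 11.34.

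All 18 mitosis genes had positive differences (median 0.68), and 2 were higher by the test, beside 1.43% of all genes. Plk1, a kinase of mitotic entry, read 11.63, 11.29 and 11.72 in cultures, against 9.74, 10.34 and 10.75 in tumours (difference 1.23, SE 0.16, limma adjusted p = 0.00445), and passed in every fit that left out 1 array. Kif11, a spindle motor, differed by 1.09 (limma adjusted p = 0.0477) and lost its call in 10 of the 12 fits that left out 1 array (0.231 without the P0C culture). All 21 genes of DNA replication also had positive differences (median 0.61), but none passed. The replication list averaged 10.32 to 10.54 in cultures, against 9.15 to 10.20 in tumours. Mki67, a mark of dividing cells, read 10.52, 10.22 and 10.39 in cultures, against 9.22 to 10.94 in tumours, and did not pass (limma adjusted p = 0.216). The E16C tumours held the highest Mki67 levels, at 10.54 to 10.94.

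Of 27 genes chosen for their role in these tumours, 24 were tested and 5 passed, beside 3.13% of all genes, all of them lower in cultures: Ednrb, Abca1, Apoe, Csf1r and Pecam1. Mycn, the endogenous counterpart of the transduced oncogene, read 9.26, 8.77 and 9.32 in cultures, against 8.51, 9.10 and 9.43 in tumours, with the groups overlapping (difference 0.06, SE 0.21, limma adjusted p = 0.909). Whether its probe also reads the introduced N-myc is not stated by the labels. Myc differed by 1.58 without passing (limma adjusted p = 0.115). Ednrb, the endothelin receptor of astrocytes and neural crest cells, read 6.35, 6.35 and 6.30 in cultures, against 8.17 to 9.34 in E16C, 12.00 to 12.87 in P0C and 7.84 to 8.43 in P0F tumours (difference -3.35, SE 0.62, limma adjusted p = 0.0184). The P0C tumours stood far above the rest, and without the P0C culture the difference was -2.05 (limma adjusted p = 0.0417). NSCs were not uniformly low for Ednrb, at 8.78 and 9.58 in the 2 with N-myc and 5.98 to 11.75 over all 6 arrays. Otx2 was too low to test, and Sox2, Sox9, Olig2, Gli1, Atoh1, Pdgfra, Fabp7, Cd44, Egfr, Srebf1, Col1a1, Fos, Egr1, Cdkn1a and Cdkn2a did not pass.

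Of 12 genes of neural stem cells and radial glia 1 was higher in cultures, beside 1.43% of all genes, and 1 lower, beside 1.70%. Tnc, the matrix protein tenascin-C, read 11.24, 11.89 and 10.95 in cultures, against 8.03, 9.08 and 11.22 in tumours (difference 2.30, SE 0.48, limma adjusted p = 0.0275). Prom1, the membrane protein CD133, read 5.31, 5.17 and 5.60 in cultures, against 6.49, 6.68 and 8.63 in tumours (difference -1.85, SE 0.34, limma adjusted p = 0.0172). One P0F tumour lay above the P0F culture for Tnc, while the groups did not overlap for Prom1. Neither passed without the P0C culture (limma adjusted p = 0.183 for Tnc and 0.0665 for Prom1) or without the E16C culture (0.097 and 0.0605). The median of the list was -0.50 with all arrays and 0.32 without the E16C culture. No member of the Notch (12 genes), SHH (7), granule neuron precursor (10) or Myc-induced ribosome (17) lists passed. In the lists of p53 targets, hypoxia and glycolysis, heat shock and immediate early genes, and chemokines, 1 gene each passed: Trp53inp1 at -1.51, Pgam1 at 1.00, Hsph1 at 1.02 and Ccl3 at -2.43 with a blank in the P0C culture. Trp53inp1, Pgam1 and Hsph1 lost their calls without the P0C culture, and Pgam1 and Hsph1 did so in 10 and 9 of the 12 fits that left out 1 array. Ccl3 also fell short without that culture (limma adjusted p = 0.0564), but it had no value there. Its difference stayed at -2.43, and its p-value moved only through the other genes of the fit.

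With 1 culture per origin, the origin and the single culture cannot be told apart. In the test of whether the culture minus tumour difference depended on origin, 56 of 11912 genes (0.470%) passed, and the lone culture of each origin was assumed to vary as tumours do. For 51 of the 56 the E16C difference was the farthest from the other 2, and the E16C culture lay above the other 11 arrays for 42 and below them for 6. Without the E16C culture none passed, but that fit compares only the P0C and P0F differences and is a narrower test. In simulated data the same test found none of the 200 genes changed by 2 log2 units in 1 culture and 72% of those changed by 4, so that smaller differences by origin could be missed. The simulated noise came from the fit without the interaction, so that these shares set no limit of detection. Spire2, for example, passed with differences of 1.75 for E16C, -0.30 for P0C and 0.01 for P0F (limma interaction adjusted p = 0.0476).

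Tinagl1, a secreted matrix protein, read 12.38 in the E16C culture, 6.86 in P0C and 6.84 in P0F, against 6.76 to 7.23 in tumours (limma interaction adjusted p = 0.00076). The receptor tyrosine kinase Epha2 read 11.10, 6.54 and 6.20 in the cultures, against 6.39 to 7.40 in tumours (0.00682 by the same test). Slco4a1, an organic anion transporter, and the chemokine Ccl7 read 10.45 and 10.77 in the E16C culture, against at most 7.29 and 7.63 in any tumour. In all 4 the E16C culture was alone. Slc38a1, a glutamine transporter, read 11.63 in the E16C culture, 5.94 in P0C and 5.79 in P0F, against 11.03 to 12.01 in tumours and 11.23 to 12.04 in NSCs (limma interaction adjusted p = 0.000413). It was the 1 gene of the 56 that also passed the comparison of cultures with tumours (difference -3.86, limma adjusted p = 0.0307), a call lost without the P0C culture (0.204) and in 5 further fits. Sncaip, a binding partner of synuclein, read 5.08 in the E16C culture, 10.77 in P0C and 10.53 in P0F, against 8.19 to 10.01 in tumours.

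The E16C culture also stood apart in genes that missed the test of origin. Fabp7, the lipid-binding protein of radial glia, read 5.86 in it, 13.81 in the P0C and 13.49 in the P0F culture, against 11.07 to 13.52 in tumours (limma interaction adjusted p = 0.0567). Sox2, the stem cell factor, read 9.25, 12.23 and 11.63, against 10.28 to 13.24 in tumours, and Slc1a3, a glutamate transporter of radial glia, 6.36, 11.42 and 11.47, against 9.19 to 11.22. Cdkn1a, the cell cycle inhibitor p21, read 11.31 in the E16C culture and 6.80 and 7.22 in the others, against 6.27 to 9.05 in tumours. The matrix proteoglycan Dcn read 11.40 in it, against 6.16 and 5.97 in the P0C and P0F cultures and 6.38 to 10.77 in tumours, and the fibroblast and meningeal list averaged 8.47 in the E16C, 7.09 in the P0C and 7.01 in the P0F culture, against 7.20 to 8.79 in tumours.

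**Figure D4:**
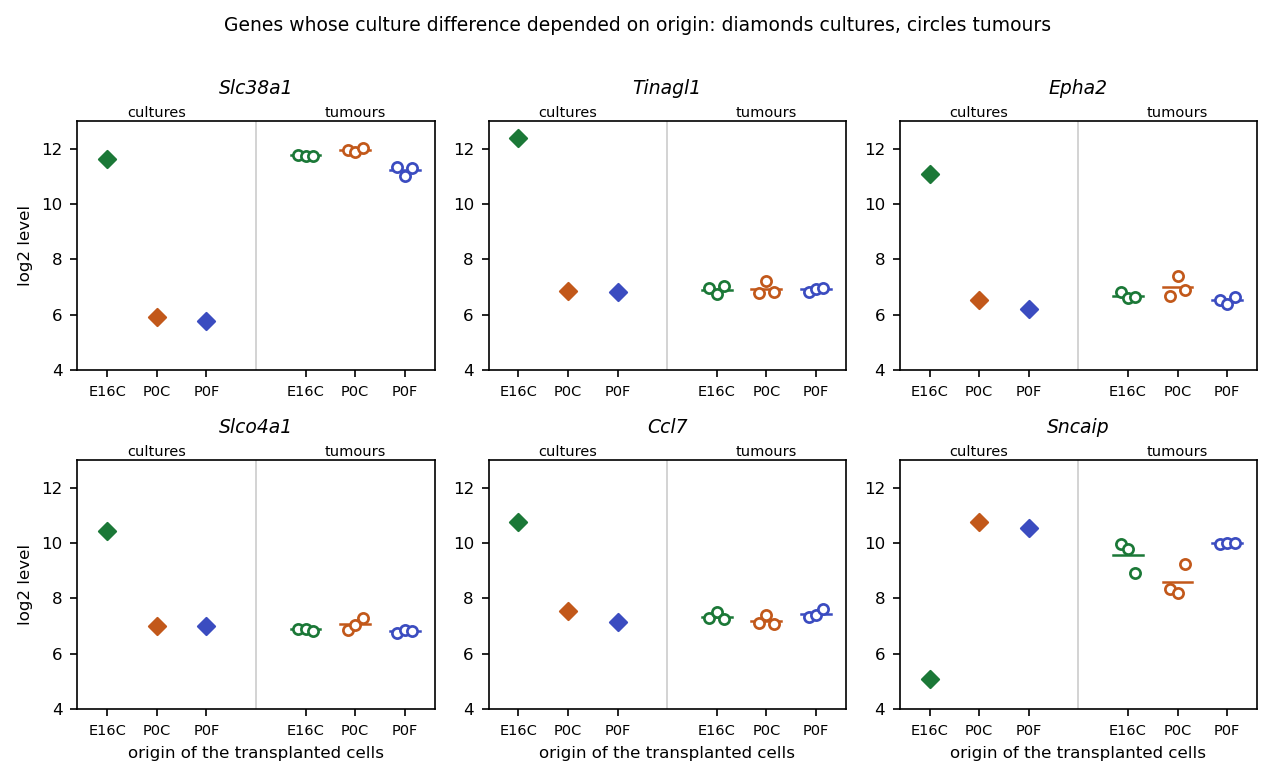
Log2 levels of the 6 genes with the strongest dependence of the culture minus tumour difference on origin, with cultures as filled diamonds on the left and tumours as open circles on the right, coloured by origin, with lines at the tumour mean of each origin. Tinagl1, Epha2, Slco4a1 and Ccl7 are high in the E16C culture alone, Sncaip is low in it alone (5.08), and Slc38a1 is low in the P0C and P0F cultures (5.94 and 5.79) and at tumour level in E16C.

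The GTML culture and tumours took no part in the comparison and gave values for the same genes. GTML mice carry a MYCN transgene under tetracycline control, driven from a glutamate transporter promoter, and the series holds 1 culture grown out of such a tumour and 32 tumours. With 1 culture there is no test, and the tumours and culture may have been labelled by different protocols. Of 202 genes lower in the tumour-derived cultures with a value there, 182 (90.1%) were lower in the GTML culture than the median GTML tumour, beside 50.1% of all genes, and 109 (54.0%) were below all 32 tumours, beside 13.2%. Of 172 higher genes 140 (81.4%) were above the median, beside 49.8%, and 88 (51.2%) above all 32, beside 15.6%. C1qb read 6.47 in the GTML culture, against 8.32 to 11.41 in GTML tumours, and Abca1 6.48, against 8.05 to 10.04. Idi1 read 10.93, against 7.58 to 9.53. Msmo1, at 11.29, lay within the range of GTML tumours (8.45 to 11.34), as did Scd1 at 11.98 (7.14 to 12.49). The sterol list averaged 10.44 in the GTML culture, against 8.53 to 9.76 in GTML tumours, and the microglia list 6.37, against 7.44 to 9.38.

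The NSCs from which such tumours arise, grown without transplantation, gave values for the same genes too. In the 6 NSC arrays, 2 with N-myc and 4 with GFP, the sterol list averaged 10.01 to 10.53, Idi1 read 10.25 to 10.78 and C1qb 5.80 to 7.21. Apod read 6.63 to 6.92 and Abcg1 6.79 to 7.43, in the range of the tumour-derived cultures or close to it. Abca1 spread widely in NSCs, from 6.39 to 9.60. Apoe differed among them as well, from 8.85 to 12.66, and its highest NSC levels reached the tumours. The P0C and P0F cultures correlated at 0.953 to 0.965 and 0.956 to 0.966 with the N-myc NSCs, and the E16C culture at 0.884 to 0.890.

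**Figure D5:**
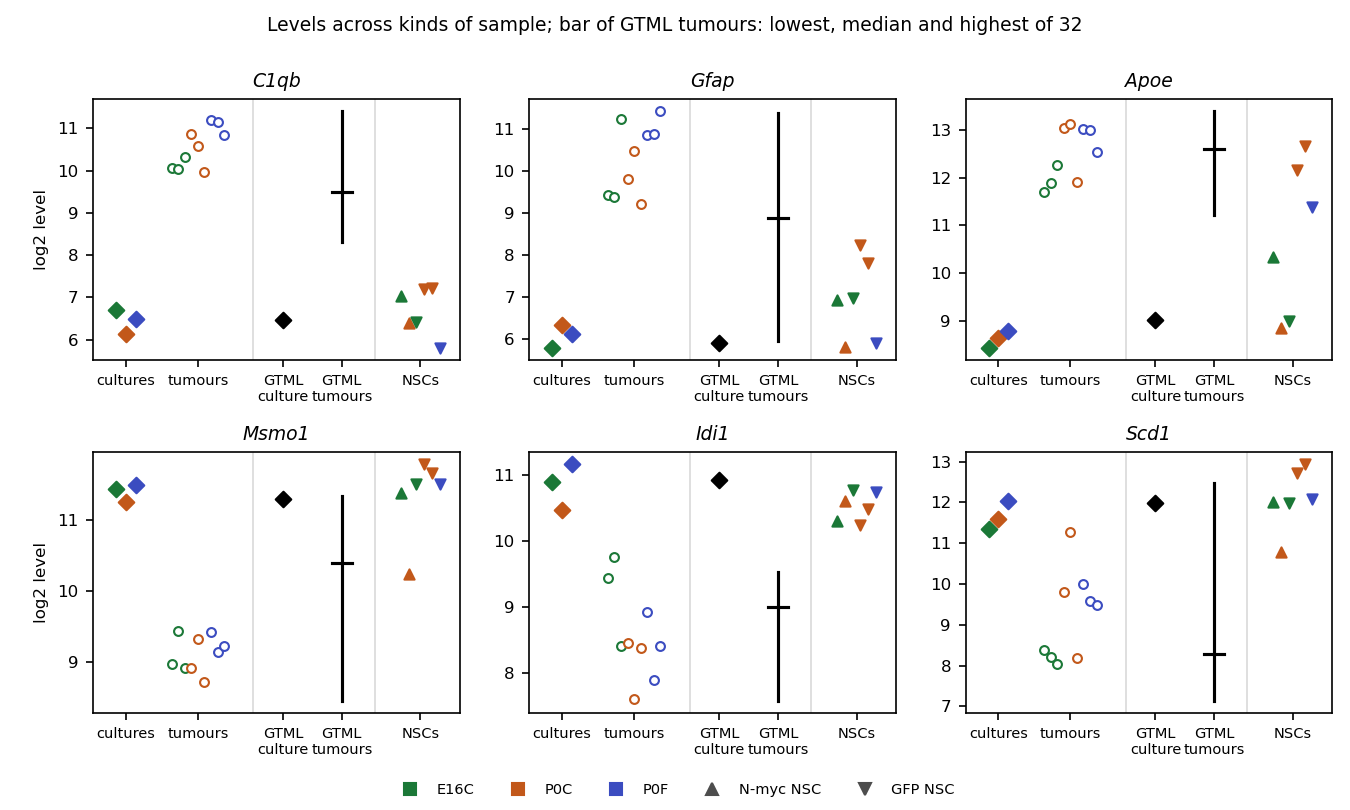
Log2 levels of 6 genes in tumour-derived cultures (diamonds), orthotopic tumours (open circles), the GTML culture (black diamond), 32 GTML tumours (bar from lowest to highest, with the median) and 6 NSC arrays (triangles, upward for N-myc and downward for GFP), coloured by origin. C1qb lies between 5.80 and 7.21 in all cultured cells and above 8 in all tumours, while Apoe spans 8.85 to 12.66 among NSCs.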

How the data were processed

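Total RNA of tumour-derived cultures and orthotopic tumours was measured on Affymetrix arrays that probe whole transcripts. Per the labels' protocols, RNA was extracted with Trizol and RNeasy and the transplanted tumours and cells were labelled with the Ambion WT Expression protocol. The authors deposited log2 values normalized by RMA, with mm9 named in the submitters' processing notes, a method that shrinks differences among dim probes. Of 17831 probes, 15620 carried 1 gene symbol, 1370 several and 841 none, and probes without a single symbol were not named. For each of 15224 genes the probe with the highest mean over 56 arrays was kept. Blank values (3.89% overall) stayed missing.

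Groups were taken from titles, because the cell type labels of 3 E16 samples are out of step with their titles. Genes above the 25th percentile (6.30) in at least 3 of the 12 arrays were tested with limma 3.58.1 (R 4.3.3), with culture and origin as terms and Benjamini-Hochberg adjustment at 0.05. Dependence on origin was tested by the interaction F over genes without blanks. With 1 culture per origin the lone culture is assumed to vary like the tumours. The named genes were the 10 largest increases and decreases among called genes without overlap, up to 4 called members per list, 27 set genes and the 6 largest interactions, passing over predicted genes. List members beyond these illustrate their list. Members and lists were chosen with earlier results of these data known. On simulated data the fit recovered 43% of changes of 1 log2 unit and 88.5% of changes of 2. Results were recomputed under 27 other settings, and under 2 more chosen after seeing the data.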

Additional observations from a re-analysis of the deposited data

Results flagged for a closer look

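Among the 9 tumours, 29 lists and 20 genes were screened for a lone array far from the others, where chance alone picks out about 1 in 20. The lymphocyte list averaged 6.29 in P0F tumour 1, against 5.77 to 5.98 in the other tumours. The Myc-induced ribosome list averaged 9.83 in P0C tumour 2, against 10.46 to 10.95 in the other tumours. The culture minus tumour difference depended on origin, by the limma interaction test with its adjusted p, for Slc38a1 (0.000413), Tinagl1 (0.00076), Epha2 (0.00682), Slco4a1 (0.0108), Ccl7 (0.0134) and Sncaip (0.0209). In each of the 6 the E16C difference was the farthest from the other 2, and each origin had 1 culture.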

How the results depend on the processing

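With all 12 arrays 377 genes passed, 172 higher in cultures and 205 lower, and 56 depended on origin. No named gene that had passed changed direction under any alternative run, whereas named genes that had not passed could fall on either side of 0, such as Sncaip (-1.97 to 1.36) and Cdkn1a (-1.17 to 1.58). Array weights gave 600 (313 higher; 116 by origin), and a model of all 56 arrays 1431 (799 higher, 632 lower). Quantile normalization gave 96 higher and 28 by origin, and the filter at the 50th percentile 6 by origin. Without an origin term 242 passed (107 higher, 135 lower), without the tumours numbered 1 149 passed (45 and 104), and with cerebellar origins alone 10 passed (2 and 8). Against only the tumours numbered 1, paired by origin, limma called 0 (0 higher, 0 lower), while 1414 had an unadjusted p under 0.05. With the replicate number as a block 80 passed (21 higher, 59 lower), 76 of them among the 377. Deviations of tumours with the same number and different origin correlated at -0.163 to 0.197, against -0.152 to 0.238 for other numbers. The numbers thus showed no pairing of tumours across origins. Of the 3 tumours of its origin, the E16C culture correlated highest with tumour 1 (0.086), the P0C culture with tumour 3 (0.100) and the P0F culture with tumour 2 (0.081). Such small correlations cannot decide which tumour a culture came from. With the P0C and P0F cultures averaged to 1 array, chosen after seeing the data, 48 passed (11 and 37), all of them among the 377.

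Leaving out each array in turn gave 56 to 492 genes, 17 to 254 higher, 39 to 238 lower and 0 to 81 by origin. Without the P0C culture 56 passed (17 and 39), without the P0F culture 96 (39 and 57), without P0F tumour 2 223 (85 higher) and without P0F tumour 3 249 (102 higher). By origin 0 passed without the E16C culture, 21 without E16C tumour 2, 12 without P0C tumour 1, 36 without P0C tumour 3, and 18, 21 and 18 without P0F tumours 1, 2 and 3. With a culture left out, the test by origin compares only the differences of the other 2 cultures, so that its count is not like the rest. The cause of these shifts was not tested. Many of the largest decreases end near array background in cultures, where a log2 difference may understate that of the transcript.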

Other observations

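The interferon response list (12 genes tested, none called) averaged 7.89, 7.01 and 6.79 in the E16C, P0C and P0F cultures, against 6.50 to 7.12 in E16C, 6.59 to 7.51 in P0C and 8.42 to 10.22 in P0F tumours. Its median difference was 1.17 for E16C, -0.14 for P0C and -2.52 for P0F. The antigen presentation list (10 genes, none called) averaged 7.02 to 7.74 in cultures, against 8.36 to 9.89 in P0F and 7.17 to 8.45 in the other tumours.

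The ERK feedback list, phosphatases and Sprouty proteins induced by growth factor signalling, averaged 10.33, 10.44 and 10.37 in cultures, against 8.25 to 10.68 in tumours. All 11 of its genes had positive differences and none passed. The amino acid response list had no call among 15 genes, with a median difference of 0.34. The oligodendrocyte precursor list (9 genes), the choroid plexus list (4 genes), the photoreceptor list (6 genes) and the red blood cell list (1 gene) gave no call either, with median differences of -0.88, -0.50, 0.04 and 0.15.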
